A study of Mus musculus with 6 samples.

Results

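The genes described here are 199 protein-coding genes that lie within 10 Mb of Srsf1 on mouse chromosome 11. They were taken from the 47205 rows of the deposited expression table as coding genes whose start is at most 10000000 bases from that of Srsf1 and whose mean over the 6 libraries is at least 1 FPKM (fragments per kilobase of gene length, and per library size). The stretch held 288 coding genes at any level. Of these, 81 fell below the level filter and 8 were left out by name: Srsf1, Col1a1, and genes whose names start as those of ribosomal protein, ATP synthase or cytochrome oxidase genes. Rps6kb1, which encodes a kinase and not a ribosomal protein, was among the 8 because of its name. Members were thus chosen by position and by their mean FPKM over both genotypes. Beyond the filter on that mean, no difference between genotypes was part of the rule. The rule was set with earlier results of these data known.

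RNA was sequenced from whole ovaries taken at 9 days post partum (dpp), in 3 libraries of the genotype labelled SRSF1 cKO, with Srsf1 knocked out in granulosa cells, and 3 labelled WT. Neither the Cre driver, nor the strain of the mice, nor whether WT animals carried the unrecombined conditional allele, was given in the sources used here. The labels do not tie replicates to separate animals, and p-values therefore measure only how far these samples spread, which may be technical. The tissue label was checked with marker lists: all 16 granulosa cell genes and all 15 oocyte genes looked up were detected. Summed over the granulosa list the level was 1333, 1221 and 1263 FPKM in cKO replicates 1, 2 and 3, against 1484, 1545 and 1444 FPKM in the WT replicates, and over the oocyte list 2952, 2665 and 2842 FPKM in cKO, against 2894, 2738 and 2873 FPKM in WT.

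Srsf1 encodes a serine/arginine-rich protein that binds exons and guides the splicing machinery to them. A conditional allele is usually made by gene targeting in embryonic stem cells, and a stretch of the stem cell donor's chromosome can stay with the allele through later breeding. Genes on such a passenger segment can differ between mutant and control animals for reasons unconnected with the deleted gene, and the difference would be expected to sit close to the targeted gene. The comparison asks whether genes near Srsf1 differed between cKO and WT ovaries, and how the difference ran with distance. Strain variants were not analysed here.

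Srsf1 itself (GRCm39 chromosome 11, 87937325 to 87944583, plus strand) had levels of 20.3, 26.9 and 21.4 FPKM in cKO ovaries (replicates 1, 2 and 3), against 39.9, 49.6 and 46.3 FPKM in WT replicates 1, 2 and 3. The genotypes did not overlap, and the library labels thus fit the level of the targeted gene. The log2 fold change, cKO minus WT on the log2(FPKM + 1) scale, was -0.96 (SE 0.13, with 0.32 as its adjusted p in limma). A two-sided exact permutation over the libraries gave p = 0.1, the smallest that 3 against 3 libraries allow. Whole ovaries hold oocytes, stroma and vessels besides granulosa cells, and in such bulk samples fewer cells of a type and less RNA per cell cannot be told apart.

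Recovered reads numbered 18643207, 18599173 and 18721895 in cKO replicates 1, 2 and 3 and 16840923, 18236787 and 18512185 in the WT replicates, so that a single read in 1 kb of gene was worth 0.052 to 0.0581 FPKM. Members ranged from a mean of 1.01 FPKM for Evi2a to 120 FPKM for Elobl, which encodes an elongin B-like protein, with a median of 9.33 FPKM. They ran from Eral1 at -9.97 Mb to Stac2 at 9.99 Mb, where negative distances point to lower coordinates, with 109 members on the lower and 90 on the higher side. No member started between 2.60 Mb (Tom1l1) and 5.81 Mb (Utp18). Of the 199, 92 overlap another row of the table, and reads of overlapping genes cannot be assigned with certainty because strandedness was not given in the sources used here.

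Few members differed beyond the spread between libraries, and their share was close to that among all genes. After Benjamini-Hochberg adjustment over the 14714 genes tested, limma called 0 members, against 0.0204% of all genes, and the smallest adjusted p of a member was 0.345. At an unadjusted limma p under 0.05, 7 members were higher and 5 lower in cKO, where the background was 3.64% higher and 2.7% lower. In shares, these are 3.52% of the members higher and 2.51% lower. After adjustment, limma-voom on recovered reads called 0 of all 14714 genes, so that its 0 among the members says nothing about them in particular. The cKO and WT libraries did not overlap in 15 members with cKO higher (7.54%, background 6.37%) and in 10 with cKO lower (5.03%, background 5.89%). A log2 fold change above 0.5 in size was seen in 9 members (4.52%, background 5.65%, and 3.7% over coding genes alone). The count of 7 was 4 without WT replicate 3 and 11 without cKO replicate 2, where 3.4% and 4.1% of all genes were higher.

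**Figure D1:**
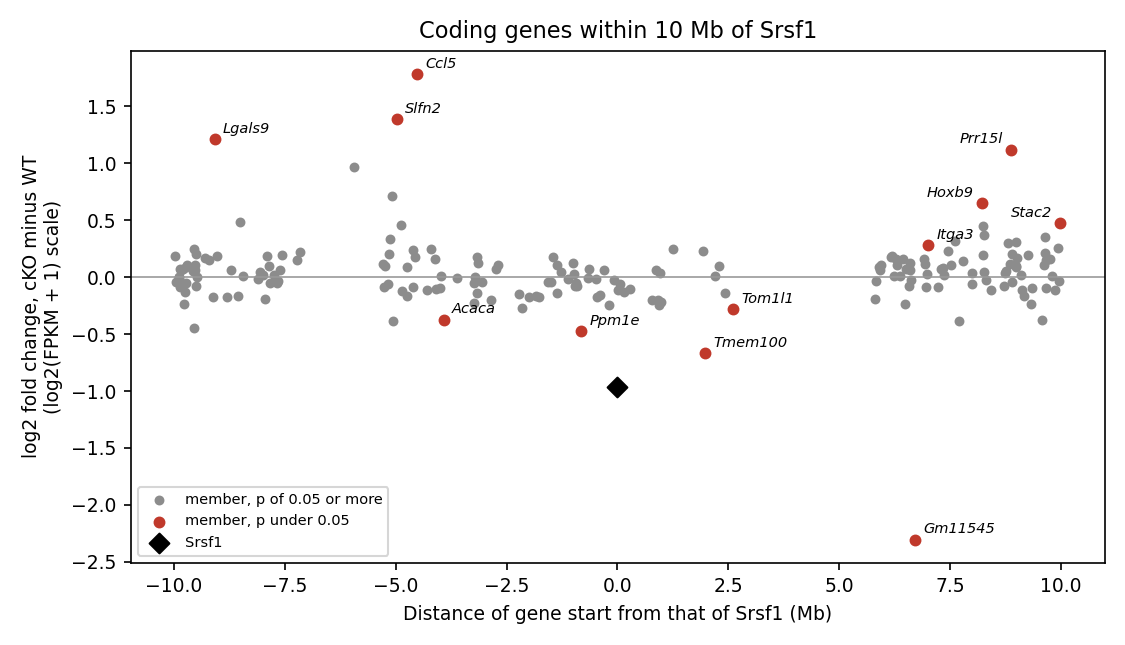
Each point is a member, placed by the distance of its start from that of Srsf1 in Mb (x axis) and by its log2 fold change, cKO minus WT, on the log2(FPKM + 1) scale (y axis); red marks the 12 members with an unadjusted limma p under 0.05 and the diamond marks Srsf1 at -0.96. Within 1 Mb of Srsf1 only Ppm1e is red, and the points furthest from 0 (Gm11545, Ccl5, Slfn2, Lgals9 and Prr15l) lie more than 4 Mb away.

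The levels of the genes nearest to Srsf1 overlapped between the genotypes. Vezf1, which encodes a zinc finger transcription factor of endothelial cells and starts 0.0213 Mb from Srsf1, stood at 10.3, 10.5 and 12.6 FPKM in cKO ovaries, against 11.1, 13.4 and 11.9 FPKM in WT ovaries. The ranges overlapped, with a log2 change of -0.11 (SE 0.11, adjusted p = 0.87 in limma). Dynll2, a dynein light chain gene and the nearest member on the lower side (-0.067 Mb), stood at 88.3, 84.2 and 89.4 FPKM in cKO ovaries, against 98.8, 88.4 and 80.5 FPKM in WT ovaries. Here the WT range enclosed all 3 cKO values. Cuedc1 (0.0527 Mb) stood at 9.07, 12.8 and 8.87 FPKM in cKO ovaries, against 11.3, 11.4 and 9.27 FPKM in WT ovaries, again overlapping.

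Of the next members outward, Mrps23, a gene of the small mitochondrial ribosomal subunit (0.148 Mb), stood at 14.5, 14.5 and 15.6 FPKM in cKO ovaries, against 20.1, 13.6 and 15.8 FPKM in WT ovaries, so that WT replicate 1 alone stood apart. Mks1, which encodes a protein of the ciliary transition zone (-0.193 Mb), stood at 4.59, 4.26 and 3.70 FPKM in cKO ovaries, against 4.51, 5.48 and 5.47 FPKM in WT ovaries (log2 change -0.25 with SE 0.12 and a limma adjusted p of 0.784). The lowest WT value lay within the cKO range. Msi2, an RNA-binding protein of stem cells (0.293 Mb), stood at 5.40, 5.05 and 6.98 FPKM in cKO ovaries, against 7.35, 6.09 and 5.51 FPKM in WT ovaries. Supt4a, a subunit of a transcription elongation factor (-0.309 Mb), stood at 38.8, 40.9 and 42.8 FPKM in cKO ovaries, against 39.7, 34.9 and 43.0 FPKM in WT ovaries. Both pairs of ranges overlapped.

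Rnf43, a membrane ubiquitin ligase that limits Wnt signalling (-0.383 Mb), stood at 3.66, 3.99 and 3.85 FPKM in cKO ovaries, against 4.99, 3.77 and 4.52 FPKM in WT ovaries. Mtmr4, a phosphoinositide phosphatase gene (-0.454 Mb), stood at 10.5, 9.15 and 11 FPKM in cKO ovaries, against 11, 12.8 and 11.2 FPKM in WT ovaries. The Mtmr4 groups did not overlap, but the highest cKO and lowest WT library were nearly level (log2 change -0.18 with SE 0.11 and a limma adjusted p of 0.807). The remaining nearest genes were Septin4 at -0.48 Mb, Akap1 at 0.784 Mb and Scpep1 at 0.878 Mb, with log2 fold changes of -0.013, -0.20 and 0.065. Akap1 anchors protein kinase A at mitochondria, and its ranges overlapped too, like those of Septin4 and Scpep1.

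Within 1 Mb, Ppm1e was the only member with an unadjusted p under 0.05. It encodes a protein phosphatase of the PP2C family that acts on PAK kinases (87117724 to 87249884, minus strand, -0.82 Mb). It stood at 3.07, 3.32 and 3.19 FPKM in cKO ovaries, against 4.36, 5.37 and 4.75 FPKM in WT ovaries. Every cKO library was lower than every WT library (log2 change -0.47 with SE 0.11 and a limma adjusted p of 0.713), and its unadjusted p stayed under 0.05 whichever library was left out. Its annotated span overlaps Trim37 on the other strand. Dgke, a diacylglycerol kinase gene at 0.989 Mb, was named after its values were seen (log2 change -0.22 with SE 0.12 and a limma adjusted p of 0.80). Beside Ppm1e and Mtmr4 it was the third of the 3 members of this interval without overlap. These were 13% of 23, all with cKO lower, where the background was 5.89%. A count of 3 in 23 genes is too small to read a difference from.

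By distance, small differences in the nearest interval leaned to lower values and those in the farthest to higher ones. Of the 23 members within 1 Mb, 18 were lower and 5 higher in cKO, with a median log2 fold change of -0.076. Of the 14 members at 1 to 2 Mb, 8 were lower (median -0.029), and of the 33 at 2 to 5 Mb, 17 were lower (median -0.011). Of the 129 members at 5 to 10 Mb, 41 were lower and 88 higher (median 0.066). In shares, 21.7% were higher within 1 Mb and 68.2% at 5 to 10 Mb. Beside these, 49.97% of all genes tested and 53.99% of coding genes of the same chromosome beyond 10 Mb were higher. Over all members the median was 0.030, beside -0.00014 over all genes tested, 0.0014 over coding genes and 0.014 over the 839 coding genes of the same chromosome beyond 10 Mb. Without cKO replicate 1 the members' median was 0.010. After scaling the libraries to a common FPKM total it was -0.027, beside -0.056 for all genes.

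The size of the difference, regardless of direction, did not run with distance. The median absolute log2 fold change was 0.076 within 1 Mb, 0.15 at 1 to 2 Mb, 0.14 at 2 to 5 Mb and 0.11 at 5 to 10 Mb, beside 0.11 over all genes tested. Across the 199 members the Spearman correlation of distance with absolute log2 fold change was -0.011, and with signed log2 fold change 0.24. Both describe genes of the same 6 libraries, which are not independent. Within 1 Mb 0 of 23 members were above 0.5 in size, where the background of 5.65% (3.7% over coding genes) is too small to read a difference from 23 genes. The lean to lower values was seen on both sides of Srsf1, in 10 of 13 members on the lower side and 8 of 10 on the higher side.

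**Figure D2:**
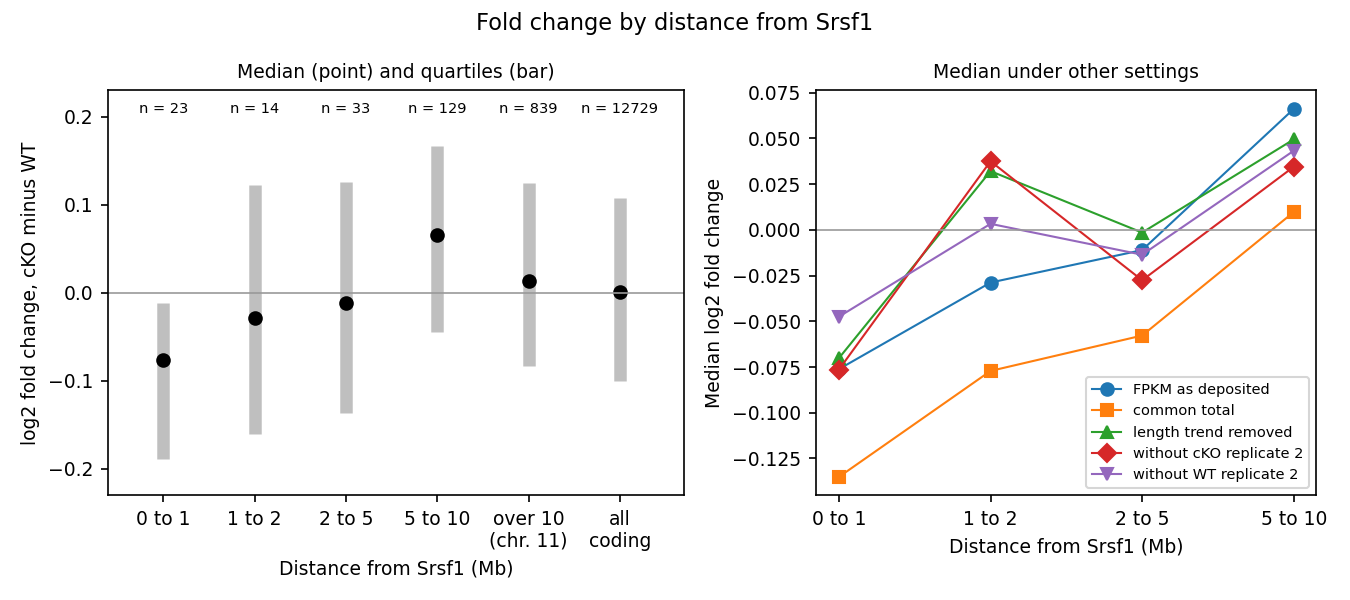
On the left, points are medians and bars the middle span (lower to upper quartile) of the log2 fold change, cKO minus WT, for members in each distance interval (x axis, Mb), for coding genes of the same chromosome beyond 10 Mb and for all coding genes tested. On the right, lines give the interval medians under 5 settings; the median within 1 Mb stays below 0 and that at 5 to 10 Mb above 0 in each.

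The nearest interval stayed mostly lower in all alternatives run, with 12 of 16 members lower under a filter at 5 FPKM and 14 to 21 of 23 elsewhere. With single libraries left out, its median lay between -0.14 (without cKO replicate 3) and -0.047 (without WT replicate 2), and that at 5 to 10 Mb between 0.035 (without cKO replicate 2) and 0.095 (without WT replicate 1). Single libraries did not carry it equally. The median deviation of these 23 members from their 6-library means was -0.0031, -0.13 and 0.014 in cKO replicates 1, 2 and 3 and 0.017, 0.079 and 0.032 in WT replicates 1, 2 and 3. cKO replicate 2 was thus the lowest library and WT replicate 2 the highest, while cKO replicates 1 and 3 lay close to WT replicate 1. Of the 37 members within 2 Mb, cKO replicate 2 was the lowest library in 16 (43.2%) and WT replicate 2 the highest in 10 (27%). Over all genes tested these shares were 27.4% and 18.7%.

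Gene length moved with the fold change in all coding genes and with distance among the members. Over the 3185 shortest coding genes (206 to 2232 bases) the median log2 fold change was 0.098, and over the 3182 longest (6067 to 114472 bases) it was -0.074. cKO replicate 2 deviated by 0.15 in the shortest and -0.13 in the longest class, and WT replicate 2 by -0.15 and 0.10. The members within 1 Mb had a median length of 4202 bases, against 3307 bases at 5 to 10 Mb and 3713 bases over all coding genes. With the length trend removed from each library, an alternative chosen after seeing the data, 17 of 23 members within 1 Mb were lower (median -0.070) and 86 of 129 at 5 to 10 Mb were higher (median 0.049). At 1 to 2 Mb the median was 0.032 under this setting, with 6 of 14 lower, and it was also above 0 without cKO replicate 2 (0.038) and without WT replicate 2 (0.0033). At 2 to 5 Mb it lay between -0.098 under the filter at 5 FPKM and 0.019 without cKO replicate 3. The lean at 5 to 10 Mb was smaller with a common FPKM total, at 68 higher and 61 lower (median 0.0097). The part of gene length in the lean by distance was not tested further.

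**Figure D3:**
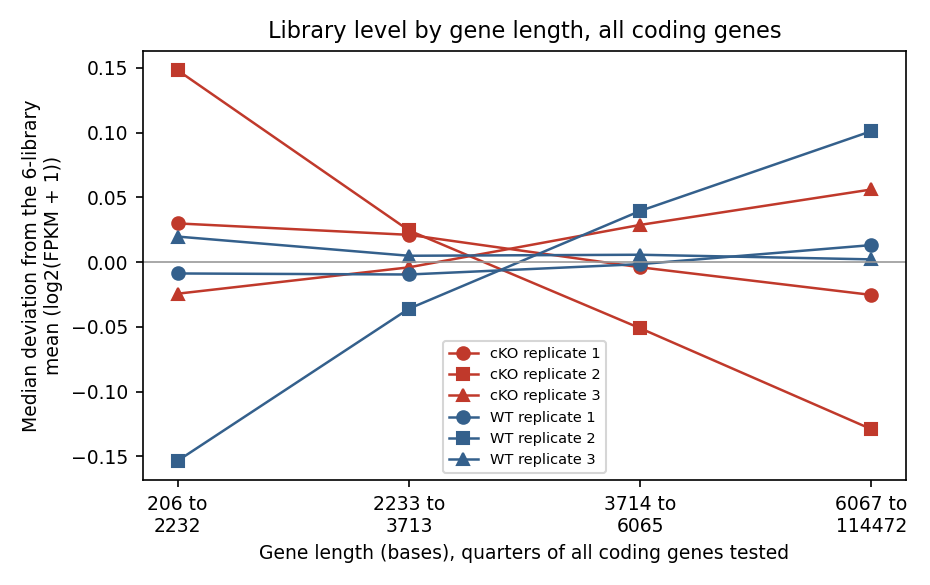
Lines give, for each library, the median deviation from the 6-library mean of log2(FPKM + 1) over coding genes (y axis) in 4 equal classes of gene length in bases (x axis). cKO replicate 2 and WT replicate 2 run in opposite directions, between 0.15 and -0.15, and the other 4 libraries stay within 0.06 of 0.

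The member with the smallest p was Gm11545, a predicted coding gene at 6.71 Mb (94645955 to 94652023, minus strand) that the table's description likens to transmembrane protein 92. It stood at 1.27, 0.824 and 0.542 FPKM in cKO ovaries, against 14.9, 5.75 and 6.16 FPKM in WT ovaries. All cKO libraries were far below all WT libraries, on 27 to 65 recovered reads in cKO and 284 to 696 in WT. The log2 fold change was -2.30 (SE 0.34, adjusted p = 0.345 in limma), the lowest of all members, and it lay between -2.52 and -1.91 when single libraries were left out. WT replicate 1 was the highest library. Gm11545 passed the level filter only through WT, its cKO mean being 0.877 FPKM, so that its direction followed from the choice.

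The rows next to it were looked up after its values were seen. Tmem92 was listed at 0 in all libraries but cKO replicate 2, at 0.0238 FPKM, and Gm11546, AA623943 and Gm11543 were listed at 0 throughout. Gm51874, a noncoding gene on the other side, stood at 0.389, 0.447 and 0.325 FPKM in cKO ovaries, against 0.875, 1.01 and 0.674 FPKM in WT ovaries. Gm11541 stood at 0.0944, 0.0929 and 0.0648 FPKM in cKO ovaries, against 0.449, 0.131 and 0.290 FPKM in WT ovaries. Both were below the level filter, and in both the highest cKO library lay under the lowest WT library. An unnamed row among the neighbours stood at 4.395, 2.93 and 2.648 FPKM in cKO ovaries, against 3.367, 2.765 and 3.029 FPKM in WT ovaries. Its genotypes overlapped. Xylt2, the next coding gene above the filter, stood at 16.2, 15.8 and 15.0 FPKM in cKO ovaries, against 16.8, 16.2 and 14.9 FPKM in WT ovaries, and its genotypes overlapped.

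Prr15l, which encodes a proline-rich protein (8.88 Mb, 96816987 to 96826474, plus strand), was the clearest member in the other direction. It stood at 12.1, 11.4 and 10.5 FPKM in cKO ovaries, against 3.13, 5.55 and 5.73 FPKM in WT ovaries. Every cKO library had at least 427 recovered reads and every WT library at most 234. The log2 fold change was 1.12 (SE 0.20, adjusted p = 0.453 in limma), between 0.89 and 1.25 with single libraries left out. Cdk5rap3, a neighbouring gene named after its values were seen, stood at 19.3, 21.6 and 17.3 FPKM in cKO ovaries, against 20.0, 17.7 and 16.0 FPKM in WT ovaries, with overlap.

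**Figure D4:**
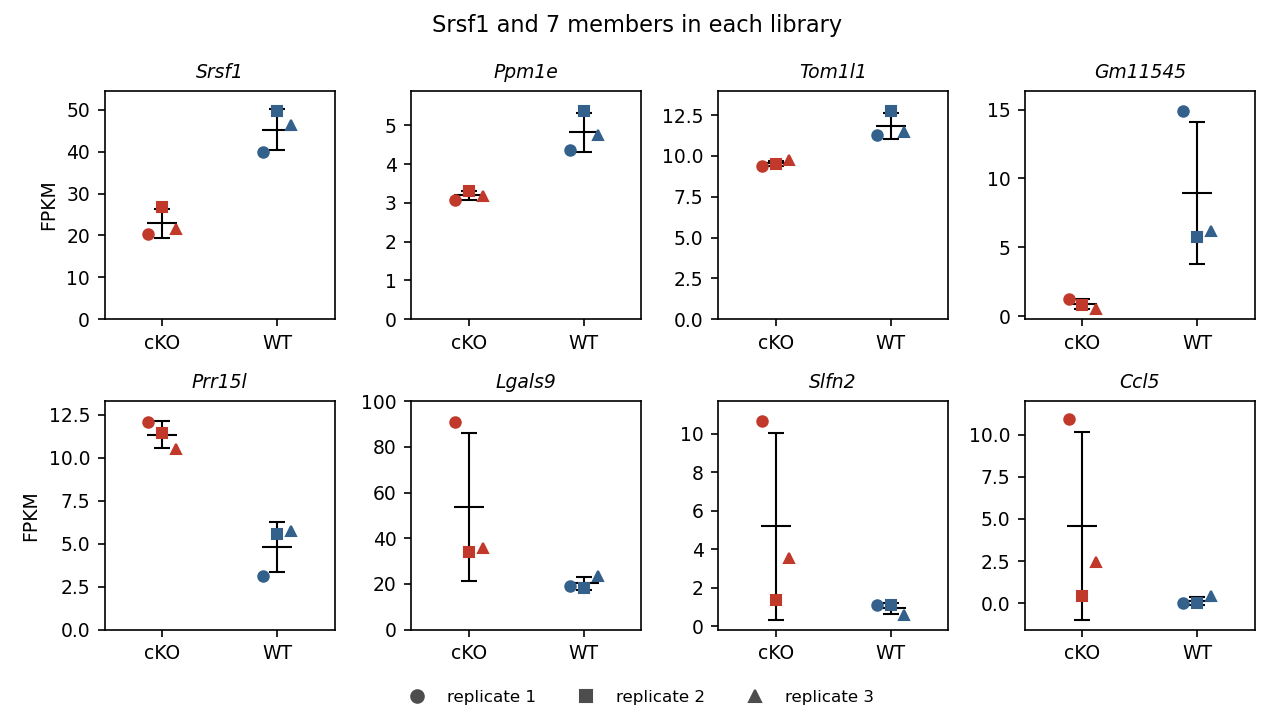
Each panel gives the FPKM (y axis, linear) of Srsf1 or a member in 3 cKO and 3 WT libraries; symbols mark the replicate number, and the black bars give mean ± SD (n = 3). All genes shown but Ccl5 separate the genotypes in all libraries, and Lgals9, Slfn2 and Ccl5 are highest in cKO replicate 1, at 91.0, 10.6 and 10.9 FPKM.

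Among other members with an unadjusted limma p under 0.05, Tom1l1, an adaptor of endosomal sorting (2.60 Mb), stood at 9.39, 9.52 and 9.72 FPKM in cKO ovaries, against 11.3, 12.7 and 11.5 FPKM in WT ovaries. The groups did not overlap (log2 change -0.28 with SE 0.086 and a limma adjusted p of 0.743). Tom1l1 shares part of its span with Cox11 on the other strand, a gene left out by name, whose mean was 5.41 ± 0.624 FPKM in cKO and 6.48 ± 0.388 FPKM in WT (SD, n = 3 each). Tmem100, a membrane protein of the endothelial BMP response in mice (1.98 Mb), stood at 3.88, 6.50 and 3.73 FPKM in cKO ovaries, against 8.27, 5.64 and 10.3 FPKM in WT ovaries, with cKO replicate 2 above the lowest WT library. The summed level of 12 endothelium genes was 274, 281 and 260 FPKM in cKO ovaries, all above the WT sums of 238, 235 and 240 FPKM; its part in the Tmem100 values was not tested. Acaca, the acetyl-CoA carboxylase that commits carbon to fatty acid synthesis (-3.92 Mb), stood at 5.69, 4.0 and 5.14 FPKM in cKO ovaries, against 6.68, 7.56 and 5.79 FPKM in WT ovaries, without overlap but with neighbouring extremes. Stac2, an adaptor of voltage-gated calcium channels at the edge of the stretch (9.99 Mb), stood at 2.04, 1.80 and 1.77 FPKM in cKO ovaries, against 1.25, 0.894 and 1.05 FPKM in WT ovaries, without overlap. Eral1, a mitochondrial GTPase gene at the opposite edge, stood at 14.6, 14.9 and 14.9 FPKM in cKO ovaries, against 12, 13.2 and 13.4 FPKM in WT ovaries.

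Of the 12 members with an unadjusted p under 0.05, 5 stayed under it in all 6 fits that left out a single library. These were Gm11545, Prr15l, Ppm1e, Stac2 and Lgals9, which lie at 6.71, 8.88, -0.82, 9.99 and -9.08 Mb from Srsf1. For Tmem100, Slfn2 and Acaca the p stayed under 0.05 in 2 of the 6 fits, and for Ccl5 in 1. The 12 were picked by p in the same libraries that these fits reuse. The matching share over all genes was not computed, so that the count of 5 does not set the members apart.

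Chemokines attract leukocytes, and the Schlafen genes are induced by interferon in mice. Of the 11 chemokine genes listed, 9 lay under 1 FPKM, and the members Ccl5 and Ccl12 passed that filter only through cKO, their WT means being 0.136 and 0.979 FPKM, so that their direction followed from the choice. Ccl5 (-4.52 Mb) stood at 10.9, 0.391 and 2.46 FPKM in cKO ovaries, against 0, 0 and 0.407 FPKM in WT ovaries, or 110, 4 and 24 recovered reads in cKO, against 0, 0 and 4 in WT. Ccl12 (-5.94 Mb) stood at 7.20, 1.07 and 2.14 FPKM in cKO ovaries, against 1.52, 0.41 and 1.01 FPKM in WT ovaries. In both genes cKO replicate 1 was highest and cKO replicate 2 lay within the WT range.

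Of 8 Schlafen genes, 5 were members, 3 higher and 2 lower in cKO, against 2 higher and 3 lower without cKO replicate 1. Slfn2 (-4.98 Mb) stood at 10.6, 1.38 and 3.54 FPKM in cKO ovaries, against 1.12, 1.09 and 0.585 FPKM in WT ovaries, without overlap (log2 change 1.39 with SE 0.53 and a limma adjusted p of 0.768). Slfn5 (-5.10 Mb) stood at 6.91, 2.13 and 3.81 FPKM in cKO ovaries, against 2.39, 1.64 and 2.01 FPKM in WT ovaries. Slfn9 (-5.07 Mb), named after its values were seen, stood the other way, at 3.07, 1.56 and 2.47 FPKM in cKO ovaries, against 2.57, 3.67 and 3.83 FPKM in WT ovaries. Slfn4, also named after its values were seen, stood at 4.95, 0.248 and 0.341 FPKM in cKO ovaries, against 0.698, 0.716 and 0.325 FPKM in WT ovaries. In Slfn4 only cKO replicate 1 lay above the WT range. Slfn2 and Slfn4 passed the level filter only through cKO, their WT means being 0.931 and 0.58 FPKM, so that their direction followed from the choice. These genes are close relatives in a cluster, and reads shared between copies would make each value uncertain. Lgals9, which encodes the sugar-binding immune regulator galectin-9 (-9.08 Mb, 78853805 to 78875750, minus strand), stood at 91.0, 34.0 and 35.8 FPKM in cKO ovaries, against 18.9, 18.3 and 23.6 FPKM in WT ovaries. Every cKO library was higher, cKO replicate 1 by far (log2 change 1.22 with SE 0.36 and a limma adjusted p of 0.74).

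The promoters of 4 of these genes are shown because the interferon-stimulated response element, a DNA motif bound by interferon regulatory factors, was searched for in them. They are RefSeq sequences on the GRCm38.p6 build, 300 bases each, with 250 before the gene start, and capitals mark each match to the 10-base motif searched: GAAA, any 2 bases, then GAAA again, on either strand (TTTC, any 2 bases, then TTTC where the match is on the strand not printed). Lgals9 is at chr11:78984875-78985174 (minus strand), Slfn5 at chr11:82951852-82952151 (plus), Slfn9 at chr11:82991781-82992080 (minus) and Slfn2 at chr11:83064862-83065161 (plus).
Lgals9: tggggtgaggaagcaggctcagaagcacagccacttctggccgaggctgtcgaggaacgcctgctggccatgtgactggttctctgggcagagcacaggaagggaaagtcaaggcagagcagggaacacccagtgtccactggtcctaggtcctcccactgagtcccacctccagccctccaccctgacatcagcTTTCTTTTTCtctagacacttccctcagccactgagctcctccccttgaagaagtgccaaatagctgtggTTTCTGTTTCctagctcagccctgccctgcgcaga
Slfn5: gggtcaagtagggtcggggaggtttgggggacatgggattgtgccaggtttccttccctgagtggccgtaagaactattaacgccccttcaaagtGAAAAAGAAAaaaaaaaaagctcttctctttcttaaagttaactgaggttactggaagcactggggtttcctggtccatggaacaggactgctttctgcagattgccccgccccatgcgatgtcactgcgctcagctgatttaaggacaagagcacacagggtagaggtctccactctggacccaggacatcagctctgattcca
Slfn9: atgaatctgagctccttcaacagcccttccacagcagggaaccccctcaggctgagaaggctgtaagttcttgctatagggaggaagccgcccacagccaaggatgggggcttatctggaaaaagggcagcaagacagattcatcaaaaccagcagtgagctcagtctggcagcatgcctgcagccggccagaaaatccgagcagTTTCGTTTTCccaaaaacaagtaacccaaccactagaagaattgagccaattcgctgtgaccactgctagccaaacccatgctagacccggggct
Slfn2: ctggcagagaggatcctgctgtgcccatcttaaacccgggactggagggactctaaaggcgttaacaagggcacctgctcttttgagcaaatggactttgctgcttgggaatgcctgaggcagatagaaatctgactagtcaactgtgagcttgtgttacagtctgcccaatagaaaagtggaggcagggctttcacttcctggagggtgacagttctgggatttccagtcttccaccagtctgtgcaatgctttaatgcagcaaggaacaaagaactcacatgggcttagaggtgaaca

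The Lgals9 window held 2 matches, those of Slfn5 and Slfn9 1 each, and that of Slfn2 held 0. In Lgals9 the first match lay before the gene start and the other after it, and in Slfn5 and Slfn9 the match lay before the start. The means of Lgals9 and Slfn5 were higher in cKO and that of Slfn9 was lower. Of all 32851 promoters of the same length, 3.44% held a match, and per gene 3.99% of 27025 did. Of the 155 members with a promoter in the table, 9 held it, 5.81%: Lgals9, Slfn5, Slfn9, Vtn, Taf15, Brip1, Itga3, Sp2 and Psmb3. None of the 21 such members within 1 Mb of Srsf1 did, and 6 of 10 genes of the interferon response list did. Ccl5 was not in the promoter table.

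Among cKO libraries, replicate 1 was highest and replicate 2 lowest in Lgals9, Ccl5, Ccl12, Slfn2 and Slfn5, as in the summed interferon and leukocyte lists. The same order held in Slfn4 and Evi2a, and in Slfn9, whose mean was lower in cKO. Slfn3, named after its values were seen, had this order too, at 1.40, 0.459 and 1.02 FPKM in cKO ovaries, against 1.25, 1.03 and 0.984 FPKM in WT ovaries. Its cKO mean was 0.959 FPKM, so that it passed the level filter only through WT. The summed level of 15 interferon response genes was 747, 138 and 193 FPKM in cKO replicates 1, 2 and 3, against 124, 100 and 132 FPKM in WT ovaries. That of 14 leukocyte genes, all detected, was 281, 91.7 and 156 FPKM in cKO ovaries, against 55.3, 39.2 and 63.9 FPKM in WT ovaries. All 15 and all 13 tested genes of the lists were higher in cKO. The part of these lists in the values of the immune members was not tested. Without cKO replicate 1, the log2 fold change was 0.76 for Lgals9, 0.78 for Slfn2, 0.97 for Ccl5, 0.37 for Slfn5 and 0.40 for Ccl12, against 1.22, 1.39, 1.78, 0.71 and 0.97 with it. Of other leukocyte genes, 3 of 9 were members: Evi2a stood at 2.14, 0.634 and 1.35 FPKM in cKO ovaries, against 0.506, 0.575 and 0.848 FPKM in WT ovaries, and Skap1, a T cell adaptor, at 5.02, 4.52 and 4.58 FPKM in cKO ovaries, against 5.78, 3.51 and 6.71 FPKM in WT ovaries. Evi2a passed the level filter only through cKO, its WT mean being 0.643 FPKM, so that its direction followed from the choice. It lies inside an intron of Nf1 on the other strand.

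The Hoxb cluster, whose homeobox genes set position along the body axis, had 6 members of 10, 5 higher and 1 lower in cKO (median log2 fold change 0.28). Without cKO replicate 2 they were 3 higher and 3 lower, with a median of -0.057. The median deviation from the 6-library means was -0.16, 0.69 and -0.23 in cKO replicates 1, 2 and 3, against 0.019, -0.31 and -0.14 in WT replicates 1, 2 and 3. Hoxb9 (8.23 Mb) stood at 3.0, 5.30 and 3.35 FPKM in cKO ovaries, against 2.79, 1.36 and 2.16 FPKM in WT ovaries, without overlap (log2 change 0.65 with SE 0.24 and a limma adjusted p of 0.768). Hoxb7 (8.24 Mb) stood at 1.33, 3.08 and 1.86 FPKM in cKO ovaries, against 1.41, 0.821 and 1.41 FPKM in WT ovaries. cKO replicate 2 was highest in both, and also in Hoxb4, Hoxb5 and Hoxb6, at 2.11, 2.66 and 3.81 FPKM, all named after their values were seen. Hoxb2, just inside the level filter, stood at 0.673, 1.99 and 0.473 FPKM in cKO ovaries, against 1.21, 1.05 and 0.72 FPKM in WT ovaries. Its WT mean was under 1 FPKM (0.9935). Hoxb5 passed the filter only through cKO (mean 1.415 FPKM, against 0.767 FPKM in WT), so that its direction followed from the choice. cKO replicate 2 also had the highest sum of 10 surface epithelium genes, which was 282, 383 and 363 FPKM in cKO ovaries, against 251, 194 and 219 FPKM in WT ovaries; the part of that list in the Hoxb values was not tested. Itga3, a laminin-binding integrin of epithelia (7.0 Mb), stood at 12.8, 13.6 and 13.0 FPKM in cKO ovaries, against 11.3, 11.1 and 9.53 FPKM in WT ovaries, without overlap (log2 change 0.28 with SE 0.095 and a limma adjusted p of 0.76).

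Genes of developmental control other than Hoxb went both ways, 3 of 7 higher and 4 lower (2 and 5 with a common total). Tbx4, a T-box factor of limb and lung development (-2.16 Mb), stood at 3.03, 3.15 and 2.33 FPKM in cKO ovaries, against 3.83, 3.9 and 3.15 FPKM in WT ovaries, without overlap by a narrow margin. Its adjusted limma p was 0.79.

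DNA repair and germ cell genes of the stretch had 8 members, 3 higher and 5 lower, with 0 under an unadjusted p of 0.05 in either direction (median log2 fold change -0.035); with the length trend removed, and likewise without cKO replicate 2, they were 5 higher and 3 lower. Brip1, a helicase of the Fanconi pathway (-1.99 Mb), stood at 3.01, 2.05 and 2.92 FPKM in cKO ovaries, against 2.84, 3.37 and 3.13 FPKM in WT ovaries. Atad5, which unloads the sliding clamp after replication (-7.96 Mb), stood at 3.41, 3.42 and 3.96 FPKM in cKO ovaries, against 3.65, 4.99 and 4.14 FPKM in WT ovaries. The ranges overlapped in both.

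Genes of RNA processing and ribosome assembly, 14 members, were 7 higher and 7 lower, with 0 at an unadjusted p under 0.05, and 4 higher and 10 lower with a common FPKM total. Coil, the scaffold of Cajal bodies where small nuclear RNPs mature (0.927 Mb), stood at 9.35, 7.35 and 8.32 FPKM in cKO ovaries, against 10.4, 10.5 and 9.24 FPKM in WT ovaries (log2 change -0.25 with SE 0.11 and a limma adjusted p of 0.773). The highest cKO library lay just above the lowest WT library. Cwc25, a splicing factor that acts at the first catalytic step in yeast (9.70 Mb), stood at 11, 12 and 11.6 FPKM in cKO ovaries, against 10.2, 10.6 and 9.79 FPKM in WT ovaries, without overlap (log2 change 0.16 with SE 0.084 and a limma adjusted p of 0.798). Of the 10 members for ubiquitin transfer and the proteasome, 6 were higher and 4 lower, against 2 higher and 8 lower with a common total. Appbp2, of that list, stood at 25.5, 19.8 and 32.2 FPKM in cKO ovaries, against 30.7, 30.4 and 27.0 FPKM in WT ovaries.

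Mitochondrial genes had 8 members, 7 higher and 1 lower in cKO (median log2 fold change 0.15, and 0.055 without cKO replicate 2). Phb, which encodes the scaffold protein prohibitin (7.62 Mb), stood at 65.7, 69.9 and 61.7 FPKM in cKO ovaries, against 63.5, 44.8 and 51.1 FPKM in WT ovaries. Mrpl45, of the large mitochondrial ribosomal subunit (9.27 Mb), stood at 9.77, 11.9 and 12.1 FPKM in cKO ovaries, against 8.87, 9.41 and 10.7 FPKM in WT ovaries. The ranges overlapped in both, and 0 of the 8 reached an unadjusted limma p under 0.05.

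Chromatin regulators were 4 higher and 4 lower, with a median log2 fold change of 0.00016, but 2 higher and 6 lower with a common total and 6 higher and 2 lower with the length trend removed. Pcgf2, a Polycomb protein (9.64 Mb), stood at 9.37, 12.5 and 10.7 FPKM in cKO ovaries, against 9.09, 9.71 and 8.72 FPKM in WT ovaries. Med13, of the kinase module of Mediator (-1.78 Mb), stood at 13.4, 10.1 and 16.7 FPKM in cKO ovaries, against 14.2, 16.1 and 14.6 FPKM in WT ovaries, the WT values inside the cKO range. Epop, which links Polycomb to elongin (9.58 Mb), stood at 0.749, 1.27 and 0.725 FPKM in cKO ovaries, against 1.52, 1.79 and 1.14 FPKM in WT ovaries. It passed the level filter only through WT, its cKO mean being 0.916 FPKM, so that its direction followed from the choice.

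Signalling genes were higher in 9 of 12 members, and in 7 with a common total. Tob1, an antiproliferative protein that recruits deadenylases (6.16 Mb), stood at 17.7, 18.9 and 18.1 FPKM in cKO ovaries, against 17.7, 14.2 and 16.2 FPKM in WT ovaries. Its lowest cKO library and highest WT library were nearly level (log2 change 0.18 with SE 0.10 and a limma adjusted p of 0.801). Genes of membrane traffic were lower in 7 of 10 members. Vmp1, which acts in autophagosome formation (-1.46 Mb), stood at 18.9, 19.6 and 20.6 FPKM in cKO ovaries, against 16.2, 15.8 and 20.3 FPKM in WT ovaries, with overlap, and its span also holds the microRNA gene Mir21a on the same strand.

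Around the level filter, Evi2a and Hoxb2 lay just inside, with means of 1.01 and 1.02 FPKM, and Adap2 and Ccl6 just under it, with 0.954 and 0.92 FPKM. Ccl6 stood at 1.99, 1.05 and 1.18 FPKM in cKO ovaries, against 0.243, 0.498 and 0.565 FPKM in WT ovaries. In 13 members the mean reached 1 FPKM in cKO but not in WT, and in 3 in WT but not in cKO, so that counts over the members near this limit depend on which genotype was higher. Of the genes left out by name, Rps6kb1, the S6 kinase (-1.55 Mb), averaged 6.51 ± 0.519 FPKM in cKO and 7.05 ± 0.578 FPKM in WT (SD, n = 3 each), a log2 change of -0.098 (SE 0.10, adjusted p = 0.873 in limma).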

How the data were processed

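Whole-ovary RNA at 9 dpp was measured in 3 cKO and 3 WT libraries, grouped by their labels. The authors deposited 1 table of FPKM values, with gene positions and lengths. HISAT2 2.0.5 is a tool listed in the submitters' processing notes, which name mm10 and GRCm39 as builds, with no role given. The chromosome accessions in the table are those of GRCm39. The counter and annotation were not given in the sources used here. Multiplied by gene length, each FPKM fell on whole steps of its library, within 0.01, from which reads per gene were recovered; 100% of values came out whole. No column without a sample was used.

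Genes averaging 1 FPKM or more were tested on log2(FPKM + 1), which understates changes of low genes, with limma 3.58.1 in R 4.3.3 (trend in the prior variance, two-sided, Benjamini-Hochberg over 14714 genes, threshold 0.05). No further scaling was applied. The fit was tested on simulated data. Figures used matplotlib 3.10.9.

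The members, the role and marker lists, the distance intervals and the rule for named genes were chosen with earlier results of these data known. Named are Srsf1, the 6 nearest members on each side, up to 8 members in each direction with the smallest p, the 2 smallest p of each role list, and members at the limits of the rule. Other genes are marked as chosen after their values were seen. A gene that this rule names is not reported here. limma-voom on recovered reads and the length correction (lowess of each library's deviation on log10 gene length) were added after seeing the data.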

Additional observations from a re-analysis of the deposited data

How the results depend on the processing

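In 21 alternatives, 0 members passed the adjusted threshold, beside 0 to 5 of all genes tested. With single libraries left out the log2 fold change of Srsf1 lay between -1.08 and -0.88. Members higher at an unadjusted p under 0.05 numbered 7, but 13 with library weights and 3 with a filter at 5 FPKM. Over all genes, the share higher was 3.64% in the main fit, 6.51% with library weights and 3.35% with that filter. With a distance limit of 5 Mb the members higher numbered 2, and with 2 Mb 0. Members lower numbered 5, but 3 with the filter at 5 FPKM and 2 within 2 Mb. Over all genes, 2.7% were lower in the main fit and 2.45% with that filter. Filters and limits leave fewer genes by construction (132, 70 and 37). The replicate numbers gave no sign of pairing, with correlations of 0.181, -0.0804 and -0.057 between same-numbered libraries, of which not all correlated best with their own number. With the replicate block, 3 members were lower, beside 2.69% of all genes. The median log2 fold change of the members was -0.027 with a common total, 0.011 with the filter at 5 FPKM, -0.046 within 5 Mb and -0.064 within 2 Mb. Leaving out single libraries gave 4 to 11 members higher, 4 to 7 lower and medians of 0.010 to 0.048. Over all genes these fits gave 1.77% to 4.1% higher and 1.54% to 3.55% lower.

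Of 836 values of 45 named genes under other settings, 822 kept their direction and 14 reversed. None of these had been called, and the cause was not tested. With the length trend removed, Septin4 was at 0.0014 and Supt4a at -0.050, and with a common total Supt4a was at -0.0029. Leaving out single libraries gave ranges of -0.13 to 0.11 for Septin4, -0.019 to 0.13 for Supt4a, -0.098 to 0.048 for Dynll2, -0.22 to 0.022 for Cuedc1, -0.25 to 0.015 for Mrps23, -0.34 to 0.046 for Skap1 and -0.34 to 0.17 for Hoxb2.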
